A study of Mus musculus with 37 samples.

Results

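The immediate early genes described here are 10 transcripts, Fos, Fosb, Jun, Junb, Egr1, Egr2, Arc, Npas4, Nr4a1 and Ier2, chosen by symbol from the 21975 genes of the deposited tables. All 10 were found. They were read in astrocytes taken from the hippocampus of mice 4 months after controlled cortical impact (CCI), a focal blow to the cortex, or after sham surgery. Injured mice that had more than 1 epileptic episode on video-EEG are called PTE+ (post-traumatic epilepsy), and the other injured mice PTE-. Sham mice had the craniectomy and the recording electrodes but no impact. The labels name all mice wild type and CD31, the methods name CD1 males, and no transgene or drug treatment separates the groups. The contralateral side gave 20 libraries (5 PTE+, 10 PTE-, 5 sham) and the ipsilateral side 17 (4, 8 and 5). The same 17 mice gave both. Each library is 1 hippocampus of 1 mouse.

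Immediate early genes are switched on within minutes of a stimulus by factors that are already in the cell, chiefly CREB at cAMP response elements and SRF at serum response elements, and their RNA is short-lived. Fos and Jun proteins pair into the AP-1 transcription factor, Egr and Nr4a proteins bind DNA in their own right, and Arc acts at synapses. In the hippocampus they are known as marks of seizures and of neuronal activity, and the enzymatic dissociation of tissue is also known to raise them. The question was whether their RNA differed with epilepsy, with injury or with the injured side. The tissue was dissected in ice-cold fluid with blockers of glutamate receptors, digested with papain, and the astrocytes were held on beads against ACSA-2, a surface antigen of astrocytes. The time from the last seizure to dissection was not given in the sources used here.

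Promoters of the AP-1 genes are shown because Fos, Junb and Jun went up and down together from mouse to mouse in the values that follow. Each line gives the 250 bases before the RefSeq start site on the gene's strand (GRCm38.p6), and capitals mark the core of the cAMP response element, TGACG, read on either strand. The windows are chr12:85473640-85473889 (plus strand) for Fos, chr8:84978749-84978998 (minus) for Junb, chr7:19310046-19310295 (minus) for Fosb and chr4:95052223-95052472 (minus) for Jun.
Fos: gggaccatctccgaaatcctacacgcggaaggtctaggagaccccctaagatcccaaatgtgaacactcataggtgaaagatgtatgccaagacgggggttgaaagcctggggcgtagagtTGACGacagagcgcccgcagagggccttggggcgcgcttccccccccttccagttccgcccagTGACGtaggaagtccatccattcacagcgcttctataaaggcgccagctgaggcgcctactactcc
Junb: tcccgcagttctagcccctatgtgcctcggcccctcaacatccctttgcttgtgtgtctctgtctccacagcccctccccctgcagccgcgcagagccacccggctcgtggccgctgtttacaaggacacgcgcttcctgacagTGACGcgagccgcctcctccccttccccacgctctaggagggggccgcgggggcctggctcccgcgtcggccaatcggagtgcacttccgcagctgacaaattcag
Fosb: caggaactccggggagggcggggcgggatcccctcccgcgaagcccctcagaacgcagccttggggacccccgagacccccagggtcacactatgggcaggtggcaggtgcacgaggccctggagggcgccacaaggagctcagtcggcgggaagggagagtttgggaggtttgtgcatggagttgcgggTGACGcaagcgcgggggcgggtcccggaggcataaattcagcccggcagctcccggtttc
Jun: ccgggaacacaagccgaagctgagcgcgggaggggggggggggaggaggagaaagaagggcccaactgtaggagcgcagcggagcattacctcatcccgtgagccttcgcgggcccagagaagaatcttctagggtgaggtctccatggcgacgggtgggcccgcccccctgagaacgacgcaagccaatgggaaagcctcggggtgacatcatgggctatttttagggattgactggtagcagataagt

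The core TGACG was present before the start of 6 of the 7 members with a window read here (Fos, Fosb, Junb, Egr2, Npas4 and Nr4a1, not Jun) and in 17.8% of all 32851 promoter windows. Counted from the start site, with negative positions before it, the core began at -129 and -66 in Fos, at -106 in Junb and at -60 in Fosb. Nr4a1 held 4 cores, which began at -233, -213, -69 and -40. The whole element TGACGTCA, which contains the core, was in none of the 7 and in 1.55% of all windows, and the AP-1 element TGANTCA was in none and in 6.75%. The EGR element GCGGGGGCG was found in Fosb and Nr4a1 (2.57% of all windows), TATAAA in Fos alone (12.4%), and the CArG box, the core of the serum response element, in Egr2 alone (1.47%). A member was counted if any of its windows held the element, and Egr2 had several windows, while the shares are over single windows. These matches are letters in a short window and were not tied to any level below.

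Levels per length are given as TPM, which scales reads for transcript length and depth. By the median over all 37 libraries the members fell in the order Jun (200.3 TPM), Junb (162), Fos (116), Ier2 (81.4), Egr1 (33.6), Nr4a1 (11.3), Arc (3.46) and Fosb (0.65), and Egr2 and Npas4 had a median of 0. Jun, Junb and Ier2 were above 3 counts in all 37 libraries, Egr1 in 36 and Fos in 35. The next, Nr4a1, was above 3 counts in 32. Neighbours in this order overlapped widely, since Jun ranged from 64.3 to 763 TPM, Junb from 36.1 to 868 and Ier2 from 22.1 to 335. The order did not hold in every group. In sham the median of Fos (340 TPM contralateral, 788 ipsilateral) lay above that of Jun (226 and 330 TPM). Fos ranged from 0 to 1826 TPM. Within groups its log2(CPM + 1), with CPM scaled for depth alone, had an SD of 2.68, larger than that of 99.9% of the 15812 genes kept, while Jun (SD 0.86) lay at 24.6%. The SD of Fos was 4.32 in contralateral and 4.67 in ipsilateral sham, where mouse a9_9 had 0 counts on both sides. In the other groups it was 1.16 to 2.41. The 99.9% was not recomputed without a9_9.

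**Figure D1:**
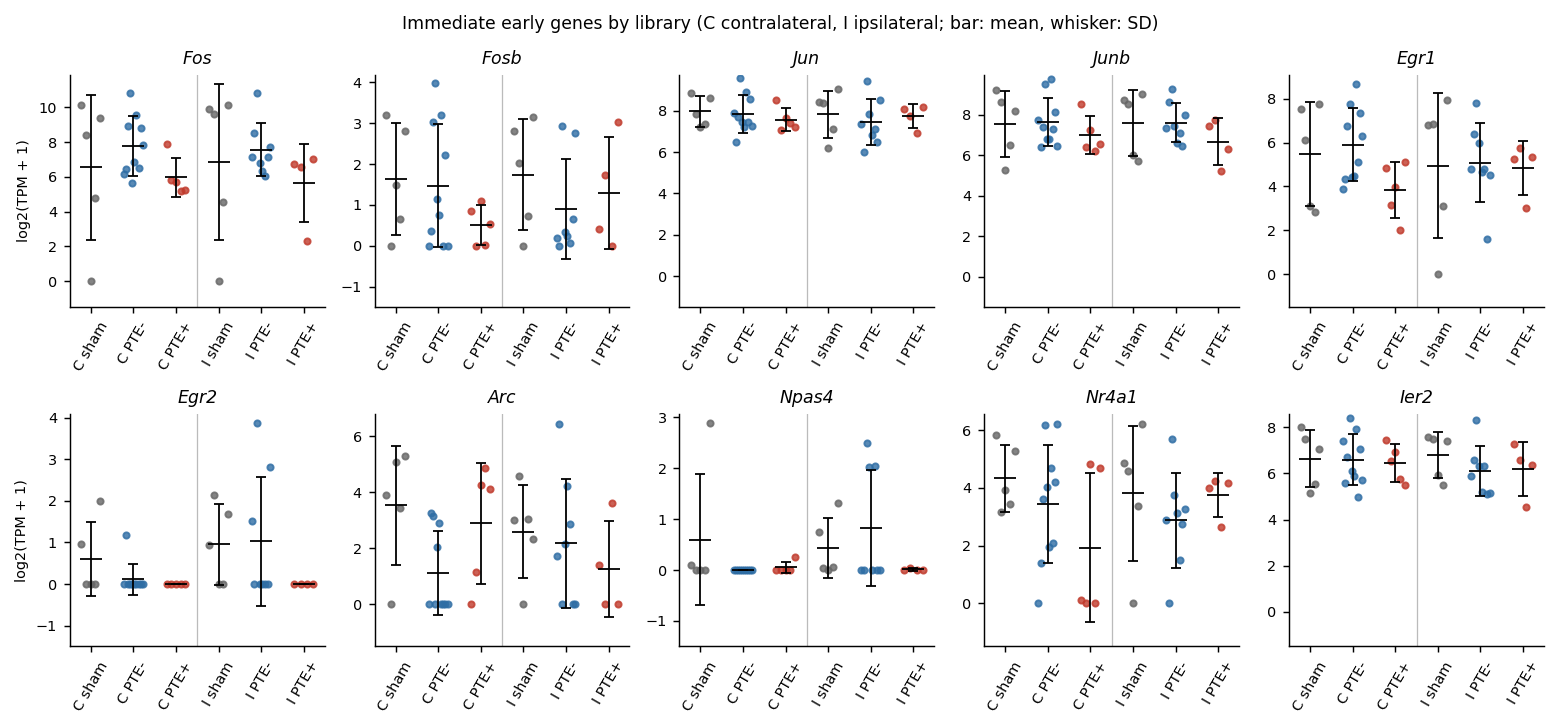
Each panel plots log2(TPM + 1) of 1 gene on the vertical axis for the 3 groups on the contralateral (C) and ipsilateral (I) side, with 1 point per library, the group mean as a bar and the SD as a whisker. Fos spans 0 to 1826 TPM while Jun, Junb and Ier2 stay above 20 TPM in every library, and Egr2 and Npas4 are at 0 in most libraries.

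Libraries held 25371887 to 59846479 counts, with 9020 to 15545 genes detected. The lowest number of detected genes was in the ipsilateral library of PTE- mouse a8_11, and 2234 of the 6953 genes with a median over 1000 counts were at 3 counts or fewer there. The groups differed in this. Contralateral PTE+ libraries had 13859 to 15028 genes detected, and at most 41 of these 6953 were at that limit. Contralateral PTE- libraries had 11756 to 15315 and up to 984, and sham 12122 to 15321 and up to 463. Ipsilateral libraries had up to 258 at the limit in PTE+, 2234 in PTE- and 836 in sham. Summed TPM of 13 astrocyte markers lay between 6333 (a8_11) and 22830. The sums were 93.2 to 1626 for 14 neuronal markers, 27.1 to 1377 for 14 microglial and macrophage markers and 311 to 2200 for 12 oligodendrocyte lineage markers. For 13 endothelial and mural markers they ran from 824 to 9159 (contralateral PTE+ a8_10). For 9 ependymal and choroid plexus markers they ran from 367 to 11477 (ipsilateral PTE- a9_12). All 14 neuronal and all 14 microglial markers passed 3 counts in at least 1 library of every group, so markers of other cells were detected throughout, and their part in the levels of the members was not tested. A lower level in such bulk libraries cannot be told apart from fewer cells that carry the RNA.

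Fos (ENSMUSG00000021250, chr12:85473890-85477273), the AP-1 partner most used as a mark of activity, had mostly lower values in contralateral PTE+ than PTE- libraries. The 5 PTE+ libraries held 234 TPM (a8_10), 55.0 (a8_17), 50.0 (a9_17), 35.6 (a9_18) and 36.7 (a9_19). The 10 PTE- libraries ran from 49.0 through a median of 172 to 1784 TPM (a8_14). The groups overlapped: a8_10 lay above the PTE- median, and the other 4 PTE+ libraries lay at the bottom of the PTE- range or below it. The sham libraries held 1118 (a8_15), 340 (a8_16), 0 (a9_9), 26.0 (a9_10) and 669 TPM (a9_11), so 3 lay above every PTE+ library and 2 below every one. The exact permutation test of PTE+ against sham gave p = 0.849. The fitted log2 fold change of PTE+ against PTE- was -2.23 (SE 1.16), with an unadjusted p of 0.0672 and an adjusted p of 0.9998 in edgeR's quasi-likelihood test over all genes. The exact permutation test of log2(CPM + 1), two-sided, gave a difference of -1.89 and p = 0.0316, where 0.000333 is the smallest p it allows. With log2(TPM + 1) the same exact test gave p = 0.0553.

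Egr1 (ENSMUSG00000038418), a zinc-finger factor that follows MAP kinase and SRF signals, had the lowest edgeR p among the members tested in the contralateral PTE+ comparisons. PTE+ libraries held 27.9 (a8_10), 7.79 (a8_17), 14.9 (a9_17), 3.03 (a9_18) and 33.6 TPM (a9_19), and PTE- libraries ran from 13.9 through 55.3 to 407 TPM (a9_14). No PTE+ library reached the PTE- median, and 4 of the PTE- libraries overlapped the PTE+ range. Sham libraries held 185 (a8_15), 67.6 (a8_16), 7.67 (a9_9), 6.22 (a9_10) and 215 TPM (a9_11), split above and within the PTE+ range. The log2 fold change was -2.62 (SE 0.91) against PTE- (unadjusted p = 0.00909 in edgeR) and -2.45 (SE 0.97) against sham (unadjusted p = 0.0194 in edgeR), and neither passed the adjustment over all genes (adjusted p = 0.9998 and 0.9999). By exact permutation p was 0.0157 against PTE- and 0.206 against sham. The unadjusted p against PTE- rose to 0.0567 in edgeR when the number of detected genes was a covariate. That against sham went above 0.05 when sham a8_15 or sham a9_11 was left out, with p up to 0.0581 in edgeR.

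In edgeR these were the only contralateral group differences among the members with an unadjusted p under 0.05. Egr1 alone, of the 8 members that passed the filter on low counts, had it against PTE-, where 2.21% of the 14642 genes tested did, and Egr1 alone against sham, where 1.23% did. No member had it in edgeR between PTE- and sham (1.54% of genes), where the log2 fold changes of the 8 ran from -2.37 (Arc, SE 1.80) to 0.17 (Egr1, SE 0.80). The other 2 members, Egr2 and Npas4, did not pass the filter of the edgeR fit on this side. By exact permutation their lowest p was 0.432 for Egr2 and 0.0952 for Npas4, both for PTE- against sham. Over the 8, the median log2 fold change of PTE+ was -1.09 against PTE- and -1.13 against sham, beside -0.05 and 0.03 over all genes, and PTE- against sham had -0.01 beside 0.07. Both PTE+ comparisons use the same 5 libraries. The study's cut-offs were an unadjusted p under 0.05, a change of 1.2-fold or more and a mean TPM over 5 in either group. Applied to these edgeR fits, they called Egr1 in both PTE+ comparisons and no other member. Of all genes they called 1.26% against PTE- and 0.512% against sham. The study took its p-values from DESeq2, where Fos too had an unadjusted p under 0.05 against PTE- (log2 fold change -2.22, p = 0.0349).

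**Figure D2:**
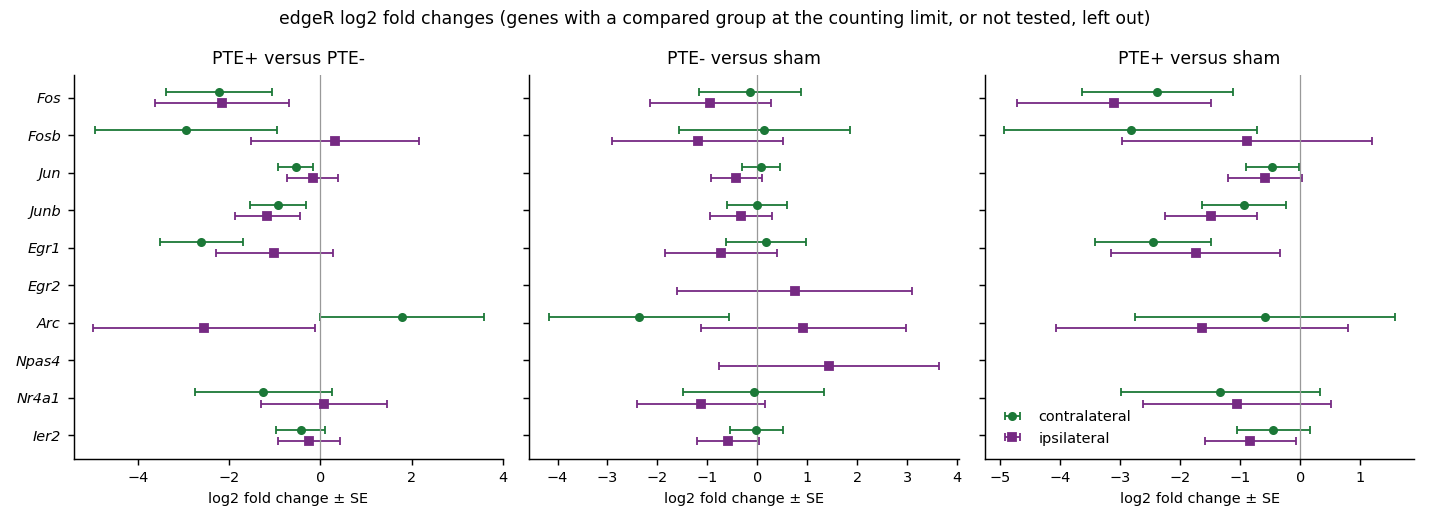
Points are edgeR log2 fold changes (horizontal axis) of each gene for the 3 group contrasts, contralateral as circles and ipsilateral as squares, with SE as whiskers. Contralateral Egr1 lies furthest from 0 in units of its SE, at -2.62 (SE 0.91) for PTE+ against PTE-, and ipsilateral Egr1 at -1.01 (SE 1.28) has a whisker that crosses 0.

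The remaining AP-1 genes and Ier2 had no unadjusted p under 0.05 between groups on this side in edgeR and none by exact permutation. Junb (ENSMUSG00000052837, chr8:84974484-84978718), a Jun protein that often restrains AP-1, held 366, 84.2, 151, 73.3 and 92.0 TPM in contralateral PTE+ libraries a8_10, a8_17, a9_17, a9_18 and a9_19, and 85.3 through 160 to 868 TPM in PTE-. PTE+ mouse a8_10 was above the PTE- median and the others below it. Its log2 fold change was -0.93 (SE 0.62). Jun (ENSMUSG00000052684, chr4:95049034-95052222), the main partner of Fos, held 132 to 361 TPM in PTE+ and 89.2 to 763 TPM in PTE-, with a log2 fold change of -0.54 (SE 0.39). Ier2 (ENSMUSG00000053560, chr8:84661331-84662852), a small nuclear protein of the fast response, held 44.0 to 176 TPM in PTE+ and 30.6 to 335 TPM in PTE-, with -0.43 (SE 0.54). Fosb (ENSMUSG00000003545, chr7:19302696-19310051) did not pass 1.13 TPM in PTE+ but reached 14.8 TPM in PTE- a8_14, with a log2 fold change of -2.96 (SE 2.00, unadjusted p = 0.152 in edgeR). Among PTE- libraries 3 of 10 had no count of it. Groups overlapped for all 4 genes. Nr4a1 (ENSMUSG00000023034, chr15:101254269-101274795), an orphan nuclear receptor, was uneven in contralateral PTE+ libraries, with 27.7 (a9_17) and 24.7 TPM (a9_19) in 2 of them and 0.07, 0 and 0 in a8_10, a8_17 and a9_18.

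Arc (ENSMUSG00000022602, chr15:74669083-74672570), whose protein moves glutamate receptors away from synapses, had another order of groups. On the contralateral side PTE+ libraries held 0 (a8_10), 1.24 (a8_17), 18.3 (a9_17), 28.2 (a9_18) and 16.5 TPM (a9_19), sham 13.8 (a8_15), 0 (a8_16), 32.9 (a9_9), 9.78 (a9_10) and 37.7 TPM (a9_11), and PTE- 0 to 8.61 TPM with a median of 0. The groups overlapped at low values, since 6 of the 10 PTE- libraries, 1 PTE+ and 1 sham library were at 0 and no PTE- library passed 8.61 TPM. The exact permutation test of PTE- against sham gave p = 0.0420 and that of PTE+ against PTE- p = 0.119. In edgeR neither had an unadjusted p under 0.05. Summed neuronal markers had medians of 636 TPM in PTE+, 418 in sham and 211 in PTE- on this side, the same order as the median of Arc. On the ipsilateral side they had medians of 495 TPM in PTE+, 462 in PTE- and 239 in sham. That is the reverse of the ipsilateral medians of Arc (0.82, 2.90 and 7.08 TPM in PTE+, PTE- and sham). The part of neuronal markers in Arc was not tested. Among mice with prefix a9 alone, PTE+ and sham each lay wholly above PTE- (exact p = 0.0119 for both, the smallest that 3 against 6 allows). The share of all genes that separate in this way was not counted. Among a8 mice the groups overlapped, with 0 and 1.24 TPM in PTE+, 0, 8.61, 7.77 and 0 in PTE-, and 13.8 and 0 in sham. Across contralateral libraries Arc followed the number of detected genes (r = 0.72, rho = 0.66, permutation p = 0.000320 and 0.00171, adjusted over all genes 0.0294, r = 0.63 without the 2 libraries with the most distant gene numbers), the only one of 40 relations of the members with depth or detected genes that passed the adjustment. Of all genes, 22.3% had an unadjusted p under 0.05 for that relation, and 560 of 15809 an adjusted p under 0.05.

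On the ipsilateral side, the injured one in CCI mice, Fos held 106 (a8_10), 94.3 (a9_17), 3.95 (a9_18) and 130 TPM (a9_19) in PTE+, 65.5 through 140 to 1826 TPM in PTE-, and 946 (a8_15), 788 (a8_16), 0 (a9_9), 22.1 (a9_10) and 1141 TPM (a9_11) in sham. Every PTE+ library was below the PTE- median. Sham libraries were split, with 3 above all PTE+ libraries, 1 within their range and 1 below. The log2 fold change of PTE+ was -2.16 (SE 1.48) against PTE- and -3.11 (SE 1.62) against sham, and the exact permutation test gave p = 0.103 against PTE- and, with a difference of -1.44 in log2(CPM + 1), p = 0.579 against sham. Egr1 held 37.3, 52.6, 7.00 and 39.0 TPM in PTE+ mice a8_10, a9_17, a9_18 and a9_19, and 2.09 through 27.0 to 226 TPM in PTE-, so that 3 PTE+ libraries lay above the PTE- median. Its log2 fold change was -1.01 (SE 1.28). Whether the Egr1 difference itself differed between sides was tested as the side difference of PTE+ against that of PTE-, which was 1.46 (SE 1.63, unadjusted p = 0.375 in edgeR).

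The other AP-1 genes and Ier2 overlapped between all groups on the ipsilateral side. Jun held 269.9 (a8_10), 217 (a9_17), 119 (a9_18) and 289.8 TPM (a9_19) in PTE+, 64.3 through 149.9 to 699.7 TPM in PTE-, and 340.4, 329.9, 72.5, 138 and 525.6 TPM in sham a8_15, a8_16, a9_9, a9_10 and a9_11. Its log2 fold change of PTE+ was -0.17 (SE 0.56) against PTE- and -0.59 (SE 0.62) against sham. Junb held 175, 211, 36.1 and 77.3 TPM in the same 4 PTE+ libraries, 86.7 through 168 to 611 TPM in PTE-, and 429, 368, 62.9, 51.1 and 527 TPM in sham. So 2 PTE+ libraries of Junb lay above the PTE- median and 2 below the PTE- range, and the log2 fold change was -1.17 (SE 0.71) against PTE- and -1.49 (SE 0.77, unadjusted p = 0.0689 in edgeR, exact permutation p = 0.278) against sham. Ier2 held 22.1 to 156 TPM in PTE+, 33.4 to 322 TPM in PTE- and 44.0 to 193 TPM in sham, with -0.25 (SE 0.68) against PTE- and -0.83 (SE 0.75) against sham. Fosb held 0.34, 2.32, 0 and 7.24 TPM in PTE+, 0 through 0.22 to 6.62 TPM in PTE- and 0 to 7.94 TPM in sham, with 0.31 (SE 1.85) and -0.89 (SE 2.08).

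Nr4a1 and Arc also overlapped between the groups on this side. Nr4a1 held 14.8, 18.2, 5.20 and 17.2 TPM in PTE+ a8_10, a9_17, a9_18 and a9_19, 0 through 7.01 to 51.6 TPM in PTE- and 0 to 74.1 TPM in sham, with a log2 fold change of PTE+ of 0.08 (SE 1.39) against PTE- and -1.06 (SE 1.57) against sham. Arc held 1.63, 0, 11.3 and 0 TPM in PTE+, 0 through 2.90 to 86.1 TPM in PTE- and 0 to 22.9 TPM in sham, with -2.56 (SE 2.43) against PTE- and -1.63 (SE 2.44) against sham. The highest PTE- value of Arc was that of a8_11, the library with the fewest detected genes. Between PTE- and sham the log2 fold changes of the 10 members ran from -1.20 (Fosb, SE 1.71) to 1.44 (Npas4, SE 2.20).

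Egr2 and Npas4 were low everywhere and at 0 in most libraries. Egr2 (ENSMUSG00000037868, chr10:67535475-67542188), a relative of Egr1 also known from myelinating cells, had no count in any of the 9 PTE+ libraries of either side. On the contralateral side it was counted in 1 PTE- library (1.25 TPM in a8_11) and in 2 sham libraries (0.96 in a8_15 and 2.99 in a9_11). Ipsilateral PTE- libraries held 13.6 (a8_14), 6.08 (a9_16) and 1.85 TPM (a8_9), and the other 5 had no count. Ipsilateral sham libraries held 0.93 (a8_15), 3.44 (a8_16) and 2.19 TPM (a9_11), and a9_9 and a9_10 had none. Against a counting limit of 3 counts per library, ipsilateral PTE+ was at least 82.3-fold lower than the PTE- mean and at least 48.9-fold lower than the sham mean, and each mean rests on 3 libraries. Leaving out the highest library of each mean, a choice made after the data were seen, took these bounds to 36.5-fold (without PTE- a8_14) and 26.7-fold (without sham a8_16). The unadjusted p was 0.0184 against PTE- and 0.0236 against sham in edgeR, with no call after adjustment (both adjusted p = 1). By exact permutation p was 0.345 against PTE- and 0.167 against sham. Npas4 (ENSMUSG00000045903, chr19:4984355-4990316), a factor known as specific to neurons, was above 3 counts in 3 ipsilateral PTE- libraries (4.62, 3.09 and 3.12 TPM in a8_14, a9_12 and a9_14) and in 4 of 5 sham libraries, and in no ipsilateral PTE+ library. Of these, sham a8_16 and a9_10 had only 4 and 5 counts, while PTE+ a9_17 had 3. On the contralateral side Npas4 was above 3 counts in 1 of 5 PTE+, 0 of 10 PTE- and 2 of 5 sham libraries. Its ipsilateral PTE+ level was at least 48.0-fold below the PTE- mean, or at least 27.6-fold without PTE- a8_14 (unadjusted p = 0.0388, adjusted p = 1 in edgeR), and exact permutation gave p = 0.418 against PTE- and 0.206 against sham. Both genes passed the low-count filter through PTE- and sham libraries alone, so a lower PTE+ level was built in and the counts of members that follow are a description for them.

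For the ipsilateral contrasts, 2 of the 10 members (Egr2 and Npas4) had an unadjusted p under 0.05 for PTE+ against PTE- beside 1.75% of 14903 genes, 1 (Egr2) for PTE+ against sham beside 1.66%, and none for PTE- against sham beside 1.58%. Without these 2 genes, whose PTE+ libraries were at the counting limit, the median log2 fold change of the other 8 was -0.63 against PTE- and -1.27 against sham, beside -0.01 and 0.00 over all genes. No member passed the adjustment in any of the 6 group contrasts in edgeR. Of all genes, 1 of 14642 passed it in contralateral PTE+ against PTE-, and 0 in each of the other group contrasts. DESeq2 gave Egr2 an adjusted p under 0.05 for ipsilateral PTE+ against PTE- (beside 0.673% of genes with an adjusted p) and against sham (0.560%).

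For several members the level on one side of a mouse went with that on the other. Fos TPM on the contralateral and ipsilateral side was 1784 and 1826 in PTE- mouse a8_14, 1118 and 946 in sham a8_15, 669 and 1141 in sham a9_11, 26.0 and 22.1 in sham a9_10, and 0 and 0 in sham a9_9. Sham mice were thus near the top and at the bottom of the range on both sides. The sides differed more in other mice, among them PTE- a9_14 (765 and 65.5 TPM) and a8_11 (87.3 and 362 TPM) and PTE+ a9_18 (35.6 and 3.95 TPM) and a9_19 (36.7 and 130 TPM). With group means removed, the log2(CPM + 1) of Fos on one side followed the other over 17 mice with r = 0.87 and rho = 0.81 (permutation p = 3.0e-05 and 0.000190, adjusted p over all genes 0.0148), and r was 0.71 without the 2 mice farthest out on the contralateral side. Jun gave r = 0.78 and rho = 0.74 (permutation p = 0.000180 and 0.00111, adjusted p 0.0444), and r was 0.64 without 2 mice. Ier2 gave r = 0.77 and rho = 0.78 (permutation p = 0.000390 and 0.000480, adjusted p 0.0610), Junb r = 0.69 and rho = 0.68 (permutation p = 0.00274 and 0.00316, adjusted p 0.149) and Egr1 r = 0.62 and rho = 0.56 (permutation p = 0.00596 and 0.0205, adjusted p 0.217), with r of 0.74, 0.59 and 0.68 without 2 mice.

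**Figure D3:**
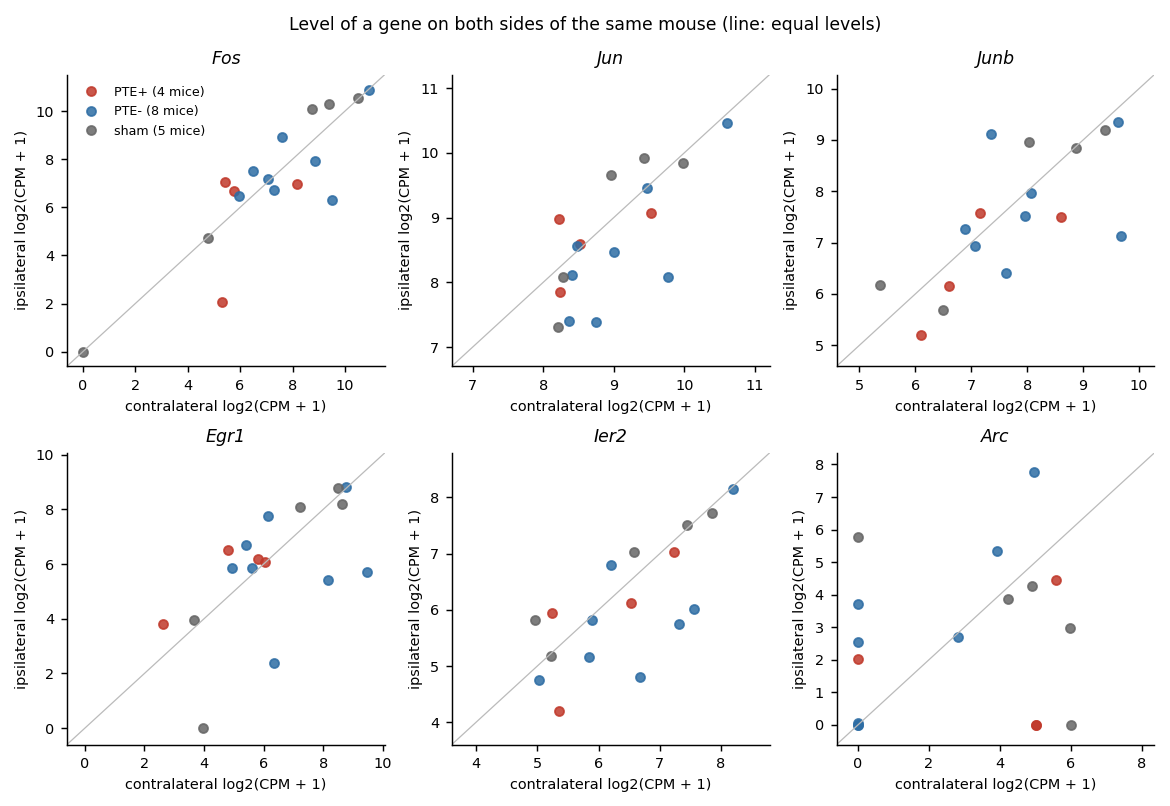
Each panel plots the level of 1 gene on the contralateral (horizontal) against the ipsilateral side (vertical) as log2(CPM + 1), with 1 point per mouse coloured by group and a line of equal levels. Fos, Jun, Junb, Egr1 and Ier2 rise along the line (r of 0.87, 0.78, 0.69, 0.62 and 0.77 with group means removed), and Arc (r = 0.22) is scattered with many values at 0.

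These relations were 10, 1 for each member. An unadjusted p under 0.05 was found for 6 of them (the 5 named and Fosb, r = 0.49 and rho = 0.44, permutation p = 0.0456 and 0.0748), beside 9.58% of the 15794 genes tested, and an adjusted p under 0.05 for 2, beside 0.462%. Arc, Egr2, Npas4 and Nr4a1 had r between -0.03 and 0.36. Other lists held such relations too. Of 11 heat shock genes that tissue dissociation is known to induce, 2 had an adjusted p under 0.05 between sides. Their median r was 0.39, beside 0.56 for the 10 members and 0.06 over all genes. Of 12 oligodendrocyte lineage markers 1 had such an adjusted p. Sham a9_9 carried part of the relation of the members. Without that mouse Fos had r = 0.71 (permutation p = 0.00175, adjusted p 0.122) and Jun r = 0.76 (adjusted p 0.0665), and no member passed the adjustment. Fos had 0 counts of 50801017 on its contralateral and 0 of 59846479 on its ipsilateral side, which allows up to 0.0591 and 0.0501 CPM, while Jun was at 146 and 72.5 TPM there. It was 1 of 6 among the 6953 well-detected genes at 3 counts or fewer in both libraries of a9_9. In the ipsilateral library of a9_9 alone, with 10886 genes detected, 836 of the 6953 were at 3 counts or fewer. In the contralateral one 13 were. The CPM limits cover counting error only. After removing the means of group and name prefix together, r was 0.83 for Fos and 0.75 for Jun (adjusted p 0.0392 and 0.0459), and that of Fos was 0.45 without the 2 mice farthest out. Whether both sides of 1 mouse were dissected, digested and sequenced together was not given in the sources used here, and handling and the state of the mouse cannot be told apart.

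Few differences between the sides of a mouse passed a test. In PTE- mice Jun was lower on the ipsilateral side in 7 of 8, by 0.61 on average on the log2(CPM + 1) scale (-0.61, SD 0.66), with an exact sign-flip permutation p of 0.0234 where the smallest possible is 0.00781. Ier2 was also lower in 7 of 8 (-0.68, SD 0.89, exact p = 0.0703). In edgeR Npas4 alone had an unadjusted p under 0.05 in PTE- mice, from 0 counts in all 8 contralateral libraries to the 3 ipsilateral ones named, beside 4.56% of 15731 genes. With the contralateral PTE- libraries all at 0, a higher ipsilateral level was built in. The exact sign-flip permutation of Npas4 gave p = 0.25. With the mouse as a replicate block Npas4 was joined by Jun (-0.61, SE 0.22, unadjusted p = 0.0131 in edgeR) and Ier2 (-0.69, SE 0.32, unadjusted p = 0.0463), beside 2.00% of genes. None passed the adjustment (adjusted p = 1 for all 3). In sham mice no member had an unadjusted p under 0.05 (2.05% of genes did), nor in PTE+ mice (2.93%), where Egr1 was higher on the ipsilateral side in 4 of 4 mice (0.83, SD 0.76), which gives the smallest p that an exact test of 4 pairs allows and cannot pass 0.05. In edgeR the side difference of PTE+ against PTE- had an unadjusted p under 0.05 for Npas4 alone (2.94% of genes), and not with the mouse as a block. By exact permutation that side difference of Npas4 gave p = 0.244. In DESeq2 Npas4 had an adjusted p under 0.05 for the sides of PTE- mice (1.05% of genes did) and for that side difference (1.45%), in each case with libraries at the counting limit. Mean side differences reached -2.29 (SD 3.41) for Arc and 1.55 (SD 2.53) for Nr4a1 in PTE+ mice and 1.30 (SD 1.54) for Arc in PTE- mice, with exact sign-flip p of 0.375, 0.500 and 0.0938.

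The members also moved together from library to library. For the 5 members detected in at least 35 libraries (Fos, Jun, Junb, Egr1 and Ier2, a set taken after the counts were seen and so given without a test), the median of the 10 pairwise r was 0.80 on the contralateral and 0.78 on the ipsilateral side, with group means removed, and the lowest were 0.64 and 0.64. Over all 45 pairs of the 10 members the median was 0.29 and 0.58, beside 0.05 and 0.12 over all pairs of genes kept. Arc stood apart, with r from -0.51 upward to its partners on the contralateral side. Correlation with Fos had an unadjusted p under 0.05 for 5 of the other 9 members on the contralateral side (Junb, Egr1, Ier2, Jun and Fosb), beside 3.95% of genes, and for 7 on the ipsilateral side (the same 5 with Nr4a1 and Egr2), beside 9.56%. Contralateral Junb reached r = 0.84 and rho = 0.79 and Egr1 r = 0.82 and rho = 0.87 (permutation p = 1e-05 for both r, the smallest that 100000 permutations can give, 6.0e-05 and 1e-05 for rho, adjusted p over all genes 0.0790), and r without the 2 libraries with the most distant Fos values was 0.78 and 0.84. Ipsilateral Egr1 reached r = 0.90 and rho = 0.85 (permutation p = 2.0e-05 and 6.0e-05) and Junb r = 0.85 and rho = 0.88 (permutation p = 1e-05 for both), each with an adjusted p of 0.0365, and r without 2 libraries was 0.80 and 0.88. Without sham a9_9 they had r = 0.79 and 0.90 and adjusted p = 0.144 and 0.0527, so neither passed. Libraries of both sides come from the same mice, so the sides do not count as separate evidence.

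**Figure D4:**
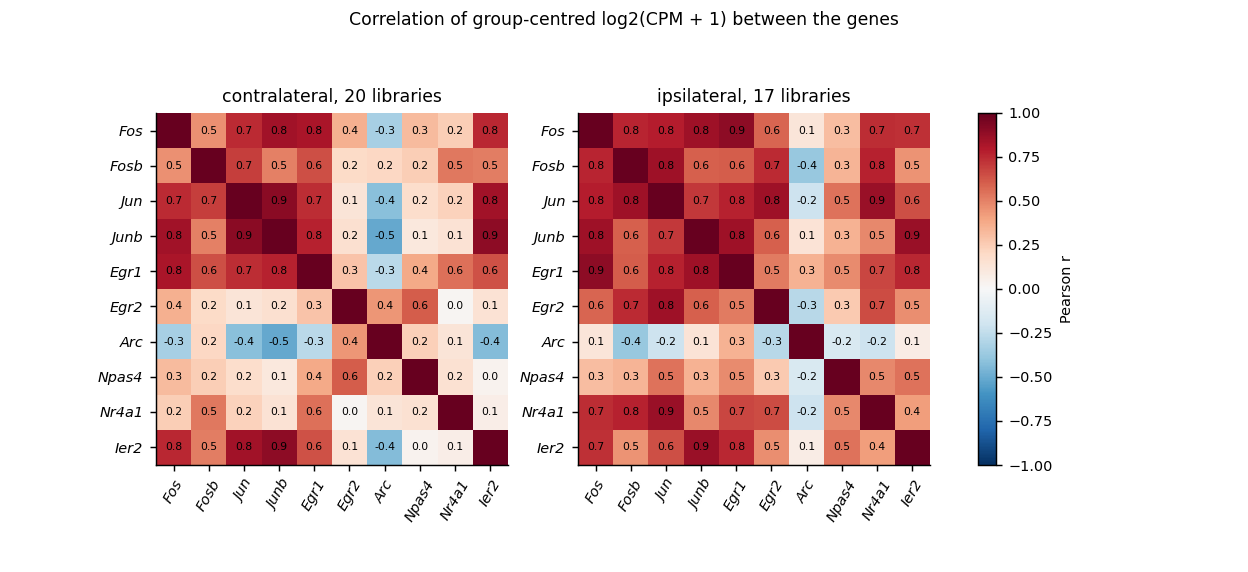
Each cell gives the Pearson r between 2 genes over the 20 contralateral (left) or 17 ipsilateral libraries (right), from log2(CPM + 1) with group means removed, on a colour scale from -1 to 1. Fos, Jun, Junb, Egr1 and Ier2 form a block of r at or above 0.64 on both sides, and Arc has r down to -0.51 on the contralateral side.

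In single libraries the leading mice were the same on both sides only in part. All 5 of these genes were among their 8 highest values of 37 libraries in both libraries of PTE- a8_14 and in the contralateral ones of PTE- a9_14 and sham a8_15, and all 5 were among the 8 lowest in ipsilateral PTE+ a9_18. In each library of sham a9_9, and in the ipsilateral one of sham a9_10, 4 of the 5 were among the 8 lowest. No PTE+ library had more than 2 of the 5 among the highest. Detected genes in the libraries with all 5 among the highest were 11271 (ipsilateral a8_14), 13174 (contralateral a8_14), 11855 (contralateral a9_14) and 15321 (contralateral a8_15).

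Other genes of the response followed in part. Dusp1, a phosphatase that switches off MAP kinases and is itself induced early, had a positive correlation with Fos on the contralateral (r = 0.72, rho = 0.73, permutation p = 0.000330 and 0.000390, adjusted p over all genes 0.373, r = 0.58 without 2 libraries) and the ipsilateral side (r = 0.86, rho = 0.77, permutation p = 3.0e-05 and 0.000590, adjusted p 0.0365, r = 0.84 without 2). Of the other 28 fast-induced genes, 4 had a positive correlation with Fos at an unadjusted p under 0.05 on each side. Of all genes, 177 of 15808 did on the contralateral and 923 of 15800 on the ipsilateral side, which also stand beside the counts that follow. Zfp36, which destabilises mRNA, was among the 4 on both sides (r = 0.59 and 0.73, rho = 0.64 and 0.79, permutation p of r = 0.00485 and 0.000610, adjusted p 0.997 and 0.115, r = 0.58 and 0.77 without 2 libraries). The median r of these 28 was 0.01 and 0.19, beside -0.04 and 0.03 over all genes. The 15 listed MAP kinase phosphatases and feedback genes, Dusp1 among them, had a median r of 0.07 and 0.18. Of these 15, 2 had a positive correlation with Fos at that threshold on the contralateral and 3 on the ipsilateral side. Of 9 related factors, among them Fosl2, Jund, Egr3 and Nr4a2, none had one on the contralateral side and 1, Atf3, did on the ipsilateral side. Among 22 upstream regulators none did on the contralateral side, and on the ipsilateral side Elk4 had a positive and Srf, which is on both lists, a negative correlation at that threshold. Of 15 late activity-response genes of neurons none had a positive one on either side, and Baz1a had a negative one on the contralateral side. Between groups, no gene of these lists passed the adjustment in edgeR in any of the 6 contrasts. Ipsilateral Dusp1 had a log2 fold change of -1.73 (SE 0.60, unadjusted p = 0.00981, adjusted p = 1 in edgeR) in PTE+ and of -1.10 (SE 0.48, unadjusted p = 0.0330, adjusted p = 0.9999) in PTE-, both against the same sham libraries.

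Of 11 heat shock genes that tissue dissociation is known to induce, Hspa1a and Hspa1b, nearly identical copies of inducible HSP70 whose reads can be split between them, were correlated with Fos at an unadjusted p under 0.05 on both sides. For Hspa1a r was 0.56 and rho 0.74 on the contralateral side (permutation p = 0.00996 and 0.000260, adjusted p 0.997, r = 0.67 without 2 libraries), and r was 0.59 and rho 0.61 on the ipsilateral side (permutation p = 0.0120 and 0.0113, adjusted p 0.328, r = 0.49 without 2). The other 9 were not correlated with Fos at that threshold. A positive correlation at that threshold was found for 177 of 15808 genes contralaterally and 923 of 15800 ipsilaterally. The heat shock list's median r was -0.11 and -0.01. Its part in the levels of the members was not tested. Summed oligodendrocyte lineage markers had a negative correlation with contralateral Fos that did not pass the adjustment (r = -0.57, rho = -0.58, permutation p = 0.00716 and 0.00852, adjusted over 12 relations of 6 marker sums on 2 sides 0.0859, r = -0.88 without 2 libraries). Summed neuronal markers had r = -0.35 and 0.26 on the 2 sides (permutation p = 0.134 and 0.319, adjusted 0.341 and 0.383, rho = -0.42 and 0.08 with permutation p = 0.0638 and 0.761, r = -0.37 and -0.10 without 2), and their part was not tested.

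The names of the mice begin with a8 or a9, and the labels do not say what this marks. The groups were spread over both (8 mice a8 and 12 a9). Ier2 had higher medians in a8 mice on both sides, at 47.6 through 172 to 335 TPM in 8 contralateral a8 libraries against 30.6 through 56.0 to 246 TPM in 12 a9 libraries, and at 58.6 through 168 to 322 TPM in 6 ipsilateral a8 libraries against 22.1 through 60.4 to 170 TPM in 11 a9 libraries. The ranges overlapped. The log2 fold change of a9 against a8 was -1.24 (SE 0.36, unadjusted p = 0.00237, adjusted p = 0.9999 in edgeR) on the contralateral and -1.62 (SE 0.41, unadjusted p = 0.00102, adjusted p = 0.936 in edgeR) on the ipsilateral side. Junb also had an unadjusted p under 0.05 on both sides (-1.05, SE 0.47 and -1.40, SE 0.46), and Jun on the contralateral one (-0.64, SE 0.29). These were 3 of 8 tested members beside 4.17% of genes on the contralateral side and 2 of 10 beside 4.68% on the ipsilateral side. In DESeq2 Ier2 alone had an adjusted p under 0.05, on the ipsilateral side, beside 1.94% of genes. Both sides are from the same mice.

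**Figure D5:**
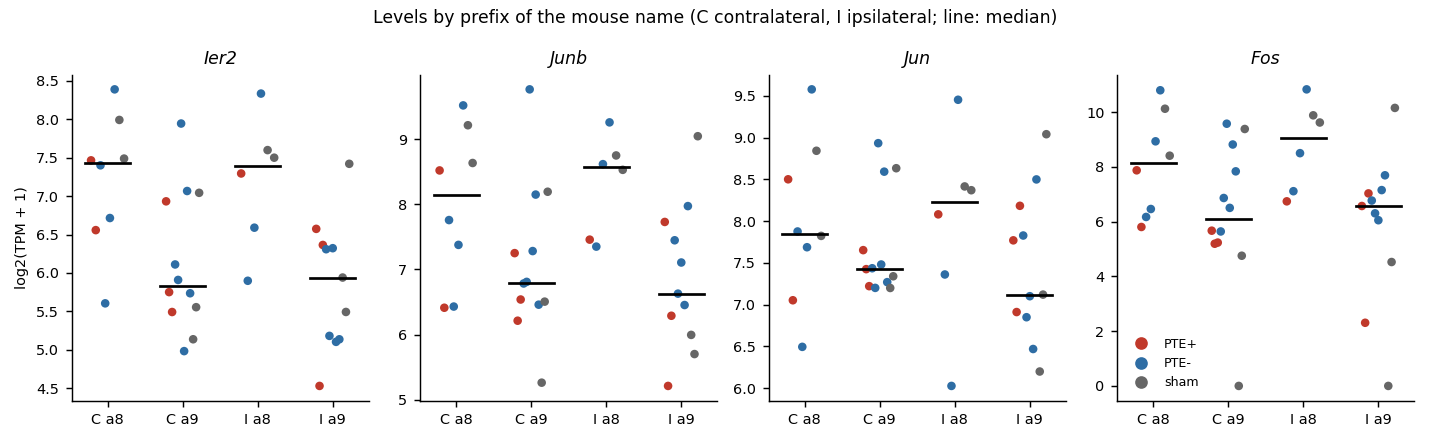
Points are log2(TPM + 1) of Ier2, Junb, Jun and Fos in single libraries (vertical axis), split by side (C contralateral, I ipsilateral) and by name prefix a8 or a9, coloured by group, with the median as a line. The median of Ier2 is 172 TPM in a8 and 56.0 TPM in a9 contralateral libraries, and all 4 panels have higher medians in a8 on both sides.

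Read within 1 prefix, the contralateral Fos values of 3 PTE+ and 6 PTE- libraries of a9 mice did not overlap in CPM. The difference was -2.26 on the log2(CPM + 1) scale (exact p = 0.0357, with 0.0119 the smallest possible). How many of all genes separate in this way was not counted. In TPM PTE+ a9_17 (50.0) lay just above PTE- a9_12 (49.0). Egr1 had exact p = 0.0714 in the same libraries. Among a8 mice the smallest exact p possible was 0.0667 to 0.333, so no contrast could pass 0.05. A fit that also held the prefix gave contralateral PTE+ against PTE- a log2 fold change of -2.43 (SE 1.10, unadjusted p = 0.0391) for Fos and of -2.63 (SE 0.94, unadjusted p = 0.0107) for Egr1, with adjusted p = 1 for both in edgeR.

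Outside the lists used here, the genes most like the members over 37 libraries from 20 mice, by the mean r of group-centred log2(CPM + 1) with all 10, were Cd82 (0.47), Derl1 (0.46), Agt (0.46), Mbd4 (0.42), Stmn3 (0.42), Igsf8 (0.42), Tspyl1 (0.41), Cables2 (0.41), Lmo1 (0.41) and Cyp4f16 (0.40), of 12996 genes ranked. Cables2, like Fos, was at 3 counts or fewer in both libraries of sham a9_9. Agt, which encodes angiotensinogen, is made by astrocytes in the brain. Among listed genes Dusp1 had the highest value (0.55).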

How the data were processed

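RNA was measured by RNA-seq (SMART-Seq V4) in 37 hippocampal astrocyte libraries of 20 mice. The authors trimmed reads with Trim Galore 0.6.4 and deposited expected counts per gene, without normalization and as whole numbers, from RSEM 1.2.28 with Bowtie2 2.4.1 on mm10, and the authors deposited RSEM's TPM beside them. The annotation release was not given in the sources used here. Symbols and positions were taken from GENCODE for GRCm38 (21856 of 21975 genes matched), and promoters from RefSeq (GRCm38.p6), where Egr1, Arc and Ier2 were not used. Groups came from the sample labels.

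Differences were tested on the counts with edgeR 4.0.16 in R 4.3.3 (filterByExpr, TMM, quasi-likelihood F test) in a fit of the 3 groups of a side, with Benjamini-Hochberg adjustment over all genes tested. The alternatives were RLE scaling, no filter, DESeq2 1.42.0, the 2 groups alone, a covariate for the name prefix or for detected genes, and leaving out each library. Sides were compared over the 17 mice with both, first unpaired and then with a replicate block for the mouse; the pairing is that of the animal in the labels, and deviations from group means correlated with a median r of 0.08 within a mouse (above 0.1 in 7 of 17) and 0.00 between mice. CPM used TMM sizes over all 37 libraries. Single genes were tested by exact permutation on log2(CPM + 1), and correlations across samples by 100000 permutations, adjusted over all genes kept rather than over the members. Fold bounds used a limit of 3 counts. Motifs were searched on both strands. Scripts were tested on simulated data. The members were to be named in every group comparison, and from the other lists only genes at an adjusted p under 0.05 or with the smallest p. The members and lists were chosen with earlier results of these data known. Depth ran from 25371887 to 59846479 counts, which leaves counting error small beside the spread between mice (biological coefficient of variation 1.32 and 1.40 on the 2 sides). Each group's samples are separate mice.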

Additional observations from a re-analysis of the deposited data

Results flagged for a closer look

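Of 57 sets of 1 member in 1 group of 4 to 10 libraries with any spread, 8 had a library whose gap to its nearest neighbour passed Dixon's 95% value, which chance gives in about 1 in 20 groups. In 3 of the 8 sets all other libraries were at 0, so that any count passes, and 3 more are 1 library, so the 8 are not independent. All values are log2(CPM + 1). In ipsilateral PTE+ mouse a9_18 was the lowest in this sense for 3 genes, Fos (2.09, next 6.67), Egr1 (3.82, next 6.07) and Nr4a1 (3.09, next 4.46), each among 4 libraries. In contralateral PTE+ the Jun value of a8_10 was the highest (9.53, next 8.51). Egr2 of contralateral PTE- a8_11 was 2.39 with all other libraries of its group at 0. Npas4 stood apart in contralateral sham a9_11 (3.66, next 0.25), in contralateral PTE+ a9_19 (0.54, the others at 0) and in ipsilateral PTE+ a9_17 (0.0740, from 3 counts).

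The ipsilateral minus contralateral difference of Arc was -2.29 in 4 PTE+ mice and 1.30 in 8 PTE- mice, a difference of -3.59 between groups (two-sided exact permutation p = 0.0283, the only 1 of 30 such tests under 0.05, with no adjustment). In edgeR the same difference was -4.67 (SE 3.33, unadjusted p = 0.170, adjusted p = 1), and ipsilateral PTE- a8_11, the library with the fewest genes, had the highest Arc (86.1 TPM).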

How the results depend on the processing

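No member passed an adjusted p of 0.05 in any of the 12 edgeR comparisons. Hardly any gene did: of all genes tested, 1 of 14642 passed in contralateral PTE+ against PTE-, and 0 in each other comparison. For the members the result held under RLE scaling, without the filter, with each covariate, with the 2 groups alone and without each library or mouse in turn. With the mouse as a replicate block the number passing was also 0 in all 4 comparisons of sides. DESeq2 called 1 member in each of 5 comparisons, namely Egr2 in ipsilateral PTE+ against PTE- and against sham, Npas4 in ipsilateral against contralateral PTE- and in the side difference, and Ier2 between ipsilateral prefixes (-1.65, adjusted p = 0.0110 in DESeq2). In these comparisons DESeq2 called 0.560% to 1.94% of all genes with an adjusted p. For Egr2 and Npas4 a compared group was at the counting limit. The study's cut-offs, applied here to edgeR p-values, called 1 member, Egr1, in contralateral PTE+ against PTE- (beside 1.26% of genes). They called 1, Egr1, against sham (beside 0.512%). The study took its p-values from DESeq2. There Fos too had an unadjusted p under 0.05, in contralateral PTE+ against PTE- (0.0349) and ipsilateral PTE+ against sham (0.0398). The direction was the same under every alternative run for contralateral Fos and Egr1 (PTE+ against PTE-), contralateral Egr1 (PTE+ against sham), Ier2 and Junb between prefixes on both sides, contralateral Jun between prefixes, and the side differences of Jun and Ier2 in PTE- mice.

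Exact permutation gave an unadjusted p under 0.05 for 3 of 60 pairs of member and contrast (2 to 3 under the other scales, within a9 and without the library with the fewest genes). That is about the number that 60 tests at a threshold of 0.05 give when no group differs. The test was not run over all genes. Within a8 it gave 0, where the smallest p possible was 0.0667 to 0.333 and none could pass. Fos in contralateral PTE+ against PTE- had an unadjusted p under 0.05 in 4 of 21 alternatives (p from 0.0118 to 0.155 in edgeR), among them leaving out PTE+ a8_10, and Egr1 in 20 of 21. Removing sham a9_9, an alternative chosen after seeing the data along with the exact test without the library with the fewest genes, left 0 members with an adjusted p under 0.05 between sides, against 2 with it; without a8_11 they were Fos and Ier2. Correlation with Fos had an unadjusted p under 0.05 for 4 to 6 members contralaterally and 6 to 7 ipsilaterally. Depth sets the level that a library at 0 counts allows, as for Egr2 and Npas4.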
